A study of Rattus norvegicus and Mus musculus with 22 samples.

Results

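The measurements below ask which lung genes responded to the loss of interleukin 6 differently late and early in experimental pulmonary hypertension. They rest on the 12 whole-lung RNA-seq libraries among the 22 samples of the series, chosen by their labels, and on the 20230 gene symbols present in both lung count tables. All 12 came from rats given the Sugen-hypoxia treatment, in which a blocker of the VEGF receptor is combined with low oxygen, so no untreated lung enters the comparison. The groups were IL6-KO lungs (IL6KO) at day 56, wild-type (WT) lungs at day 56, IL6KO lungs at day 7 and WT lungs at day 7, with 3 libraries each. The labels used here state neither strain, sex and age nor which part of Il6 is missing. The labels number the libraries without saying that each is a separate animal, so every p below measures the spread between these libraries, which may be technical. The quantity reported is the interaction: the log2 difference IL6KO minus WT at day 56, minus the same difference at day 7. A positive interaction means that IL6KO stood higher relative to WT at day 56 than at day 7.

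Interleukin 6 is a cytokine of inflammation. It binds its receptor IL6R together with the shared subunit gp130 (Il6st), which activates JAK kinases and the transcription factor STAT3. STAT3 switches on Socs3, whose product binds gp130 and shuts the signal off. In the lung vessels of pulmonary hypertension, smooth muscle cells and matrix accumulate and leukocytes gather around the vessels. Cytotoxic lymphocytes, that is natural killer (NK) cells and cytotoxic T cells, kill targets by releasing the pore protein perforin and the granzyme proteases.

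Total counts per library ran from 14415060 to 22961232 at day 56 and from 15011692 to 23590070 at day 7, with 92.38% to 94.89% of them in the shared symbols. Il6 itself had too few counts to be tested: 0, 2 and 3 in IL6KO and 6, 6 and 5 in WT at day 56, and 8, 5 and 2 in IL6KO and 5, 11 and 6 in WT at day 7. These counts are a weak check of the genotype labels. The days come from separate tables, and 26 tested genes were at 0 in every day 56 library and 23 at 0 in every day 7 library. Day and table cannot be told apart in a level, whereas a factor by which a table scales a gene in both genotypes cancels in the interaction. WT day 56 library 3 stood apart from its group. On the first principal component of the 6 day 56 libraries (43.3% of the variance), the IL6KO libraries lay at -22.4, -16.0 and -22.3 and the WT libraries at 44.4, 33.3 and -17.0. Results are therefore given with and without this library.

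With all 12 libraries, no gene passed adjustment for the interaction. edgeR's quasi-likelihood test called 0 of 13865 genes (0%) at a Benjamini-Hochberg adjusted p under 0.05, and the smallest adjusted p was 0.122. At an unadjusted p under 0.05 there were 1043 genes (7.52%), of which 590 (4.26%) were positive and 453 (3.27%) negative. DESeq2 called 48 genes, 19 positive and 29 negative. Without WT day 56 library 3, edgeR called 597 of 14002 genes (4.26%), 441 positive (3.15%) and 156 negative (1.11%). Of the 48 DESeq2 calls, 40 were among these 597, from fits that share libraries. Of 596 of the 597 that were also tested with all libraries, 549 (92.1%) had WT day 56 library 3 nearer to the IL6KO libraries than to the other WT libraries, against 66.3% of all genes tested. edgeR called none of them with that library included, so choosing them favours this position and the share is a description. The 24 genes with the smallest interaction p, 12 in each direction, were taken from genes with at least 1 CPM (counts scaled to library size after TMM correction for library composition) on each day and without clone-based names. All 24 were called without WT day 56 library 3. Choosing them by p in the fit of 12 libraries favours such calls, since the other fit uses only libraries among those 12.

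A change of sign was the usual form among the genes with the smallest p. Of those 24, 19 had genotype effects of opposite sign on the days, as did 84 of the 100 genes with the smallest p. Over all genes tested the share was 39.2%. A gene near 0 on 1 day can take either sign there, and selection for a large difference favours opposite signs, so these counts are descriptions. The median absolute interaction was 0.17 on the log2 scale over all genes, beside a median standard error (SE) of 0.20. Across 13865 genes the day 56 and day 7 effects correlated at Pearson's r = 0.22. Across the 12917 genes with at least 1 CPM on each day r was 0.32. Genes are not independent replicates, and the effects of a day share its 6 libraries.

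**Figure D1:**
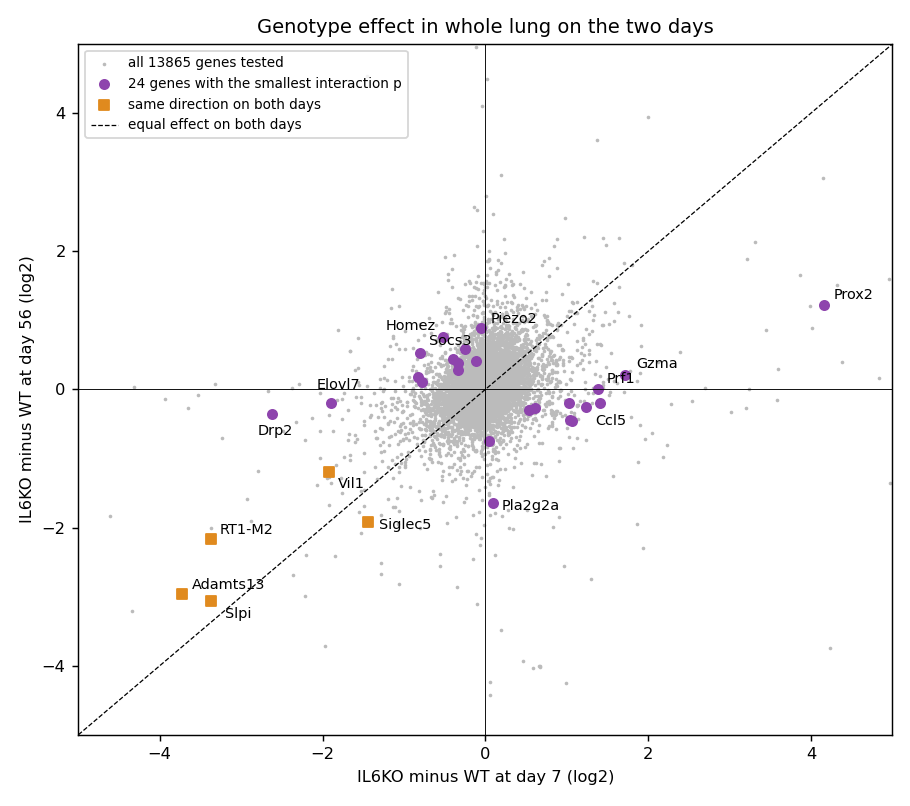
Each point is a gene, with its IL6KO minus WT log2 difference at day 56 on the vertical axis and at day 7 on the horizontal axis. Purple marks the 24 genes with the smallest interaction p and orange squares mark genes with large effects of the same direction on both days. The axes end at 5, and 27 genes lie outside them. Ccl5, Prf1 and Gzma lie to the right near the horizontal line, Socs3 and Homez lie above it on the left, and Adamts13 and Slpi lie near the dashed line.

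Genes of cytotoxic lymphocytes had negative interactions. Their list stood higher in IL6KO than in WT at day 7, and at day 56 the libraries of the genotypes overlapped. Of 19 tested Th1 and cytotoxic genes all had a negative interaction, 9 of them (47.4%) at an unadjusted p under 0.05, against 3.27% of all genes. None passed adjustment. The median effect of the list was -0.23 at day 56 and 0.92 at day 7, and the median interaction was -0.92, beside 0.00 for all genes. Without WT day 56 library 3 the median interaction was -1.04 and 4 of the 19 were called, against 1.11% called negative of all genes. The direction of this list was known from earlier results of these data.

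Ccl5, a chemokine released by activated T and NK cells, had 49.96, 77.1 and 57.5 CPM in IL6KO and 90.6, 67.1 and 62.7 CPM in WT at day 56. At day 7 it had 53.5, 49.2 and 50.05 CPM in IL6KO and 16.8, 24.3 and 23.3 CPM in WT. The genotypes overlapped at day 56, while at day 7 each IL6KO library held more than any WT library. Its interaction was -1.498 (SE 0.26, edgeR adjusted p = 0.177), -1.60 without WT day 56 library 3 (adjusted p = 0.00895).

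Prf1, which encodes perforin, had 53.4, 92.1 and 84.7 CPM in IL6KO and 70.8, 76.6 and 81.2 CPM in WT at day 56. The day 7 levels were 69.0, 62.0 and 55.2 CPM in IL6KO and 18.1, 27.2 and 26.02 CPM in WT. The WT day 7 libraries lay below all the others, and the genotypes overlapped at day 56. The Prf1 interaction was -1.37 (SE 0.27, edgeR adjusted p = 0.298), and -1.32 without WT day 56 library 3 (adjusted p = 0.0375). Gzma, the gene of granzyme A, was again lowest in WT at day 7. Its levels at day 56 were 19.5, 34.3 and 24.01 CPM in IL6KO and 20.5, 22.7 and 24.3 CPM in WT, and at day 7 they were 20.5, 17.0 and 15.7 CPM in IL6KO and 3.98, 5.99 and 6.10 CPM in WT. The genotypes overlapped at day 56 and were apart at day 7. Gzma had an interaction of -1.51 (SE 0.29) and Gzmk, the gene of granzyme K, one of -1.61 (SE 0.30), with edgeR adjusted p of 0.255 and 0.248. Without WT day 56 library 3 they were called, at adjusted p of 0.028 and 0.0196.

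Tbx21 encodes T-bet, the transcription factor of Th1 and cytotoxic cells, which binds T-box motifs. Tbx21 had 7.95, 18.5 and 13.7 CPM in IL6KO and 23.9, 13.6 and 13.1 CPM in WT at day 56, and 12.6, 12.5 and 12.04 CPM in IL6KO and 5.47, 5.49 and 6.91 CPM in WT at day 7. Its interaction was -1.39 (SE 0.41, edgeR adjusted p = 0.497), and it was not called without WT day 56 library 3 either (adjusted p = 0.0659). Nkg7, a gene of cytotoxic granules, had an interaction of -1.36, and Gzmm, another granzyme gene, one of -1.17. Runx3, a transcription factor of cytotoxic T cells, at -0.01, and Cxcr3, the receptor of Th1-attracting chemokines, at -0.02, had interactions near 0.

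**Figure D2:**
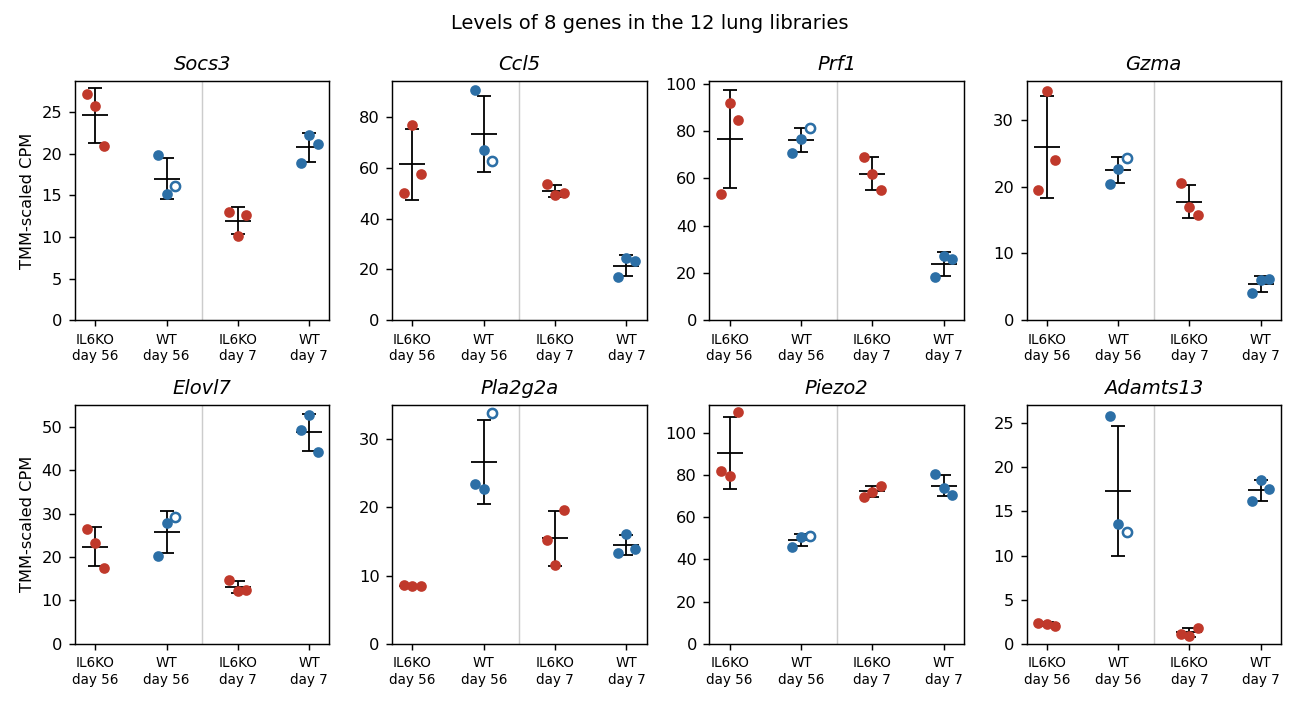
TMM-scaled CPM of 8 genes in each of the 12 libraries, IL6KO in red and WT in blue, with black marks for the mean and SD of 3 libraries and an open circle for WT day 56 library 3. Ccl5, Prf1 and Gzma are low in WT at day 7 alone, Elovl7 is high in WT at day 7 alone, Piezo2 and Pla2g2a separate the genotypes at day 56 alone, Socs3 separates them in opposite directions and Adamts13 in the same direction.

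The 250 bases before the start of 3 cytotoxic genes are shown because these genes share the interaction and T-bet has a known binding motif. They are RefSeq sequences of GRCr8, written 5′ to 3′ on the strand of the gene, and any match to the T-box core AGGTGT on either strand is in capitals. Prf1 lies at chr20:29788790-29789039 (plus strand), Gzma at chr2:46485697-46485946 (minus strand) and Gzmk at chr2:46582016-46582265 (minus strand).
Prf1: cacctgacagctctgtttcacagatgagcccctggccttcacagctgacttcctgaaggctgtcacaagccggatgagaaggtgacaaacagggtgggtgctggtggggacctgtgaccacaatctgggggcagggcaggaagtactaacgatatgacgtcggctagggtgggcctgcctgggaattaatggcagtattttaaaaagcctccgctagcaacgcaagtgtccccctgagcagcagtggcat
Gzma: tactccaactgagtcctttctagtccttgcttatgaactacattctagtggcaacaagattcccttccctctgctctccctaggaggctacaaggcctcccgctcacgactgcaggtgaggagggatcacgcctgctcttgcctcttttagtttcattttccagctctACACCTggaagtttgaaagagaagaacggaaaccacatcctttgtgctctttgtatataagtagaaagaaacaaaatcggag
Gzmk: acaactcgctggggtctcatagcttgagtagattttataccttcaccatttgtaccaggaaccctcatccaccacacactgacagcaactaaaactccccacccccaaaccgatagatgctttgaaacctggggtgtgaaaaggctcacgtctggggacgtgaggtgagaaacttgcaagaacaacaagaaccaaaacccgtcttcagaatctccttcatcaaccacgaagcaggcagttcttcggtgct

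Gzma had 1 match, on the other strand at position -82 from the start, and the Prf1 and Gzmk windows had 0. Of the 24 genes with the smallest p, 10 had a usable window. The T-box core was found in 2 of 8 windows of genes with a negative interaction (Gzma and Cyb561a3) and in 0 of 2 with a positive one, beside 11.8% of 19339 such windows over the genome. A STAT motif, TTCNNNGAA, which reads the same on both strands, was found in 8.06% of all windows. It was in 0 of the 8 and in 1 of the 2, the window of Kif26b. A match is a run of letters and not a measured binding site.

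NK cell genes followed the cytotoxic genes. Of 14 tested, 12 had a negative interaction, 7 (50%) at an unadjusted p under 0.05, against 3.27% of all genes. The medians were -0.06 at day 56, 1.04 at day 7 and -1.13 for the interaction (-0.85, with 3 called, without WT day 56 library 3). Those 3 calls among 14 genes stand beside 1.11% called negative of all genes in that fit. Il2rb, the receptor subunit through which IL-2 and IL-15 sustain NK cells, had 39.9, 60.3 and 52.6 CPM in IL6KO and 64.1, 53.2 and 58.8 CPM in WT at day 56. At day 7 Il2rb had 43.2, 43.9 and 37.2 CPM in IL6KO and 15.3, 22.8 and 22.7 CPM in WT. The day 7 groups did not overlap and the day 56 groups did. Its interaction was -1.23 (SE 0.24, edgeR adjusted p = 0.255; 0.025 without WT day 56 library 3). Ncr1, the gene of the activating receptor NKp46, was at -1.43 (SE 0.33). Klrg1, an inhibitory receptor of mature NK and effector T cells, crossed over. It had 1.80, 3.02 and 3.30 CPM in IL6KO and 5.92, 4.11 and 3.55 CPM in WT at day 56, against 2.79, 3.18 and 1.72 CPM in IL6KO and 1.07, 1.32 and 0.813 CPM in WT at day 7. Neither day's groups overlapped, and the interaction was -1.97 (SE 0.45, edgeR adjusted p = 0.42; 0.0266 without that library). In bulk tissue, fewer cells of a type and less RNA per cell cannot be told apart. Granzyme and killer-cell receptor genes lie in families with similar sequences, whose reads the counting may have divided among members.

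T cell and B cell genes leaned the same way by a different route. T cell identity genes had medians of -0.55 at day 56 and 0.12 at day 7, so most of the separation lay late. All 18 tested had a negative interaction, 8 of them (44.4%) at an unadjusted p under 0.05, against 3.27% of all genes. The median interaction was -0.79 (-0.84, with 1 called, without WT day 56 library 3). That 1 call among 18 genes stands beside 1.11% called negative of all genes in that fit. Cd3e, a chain of the T cell receptor complex, had 4.55, 6.21 and 5.92 CPM in IL6KO and 13.1, 10.2 and 9.28 CPM in WT at day 56. The day 7 levels of Cd3e were 8.49, 8.43 and 6.88 CPM in IL6KO and 6.11, 9.71 and 8.54 CPM in WT. The groups were apart at day 56 and overlapped at day 7, the reverse of Prf1. Its interaction was -0.92 (SE 0.28, edgeR adjusted p = 0.528). Cd4, the helper T cell coreceptor, had an interaction of -0.00. B cell genes had medians of -0.38 at day 56, 0.33 at day 7 and -0.52 for the interaction (-0.74, with 0 called, without WT day 56 library 3). Of 16, 5 (31.2%) were negative at an unadjusted p under 0.05, against 3.27% of all genes. Among 10 MHC class II genes 9 were negative, 2 (20%) at an unadjusted p under 0.05, beside the same 3.27%. Their median interaction was -0.32. Without WT day 56 library 3 it was -0.23, and 1 of the 10 was called, against 1.11% called negative of all genes. RT1-DOa was at -1.18 (SE 0.27). RT1 genes also form a family of close relatives.

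The same values can be read along time within each genotype, with the reserve on the tables given above. Of the 19 Th1 and cytotoxic genes, 1 rose and 0 fell between day 7 and day 56 in IL6KO, while in WT 12 rose and 0 fell. The median day 56 minus day 7 difference was 0.27 in IL6KO and 1.34 in WT. Among 14 NK cell genes 1 rose in IL6KO and 10 rose in WT, and among 16 B cell genes 2 rose in IL6KO and 12 in WT. Over all 13865 genes 471 rose and 682 fell in IL6KO (8.32% called in either direction), and 932 rose and 1116 fell in WT (14.8%). Ccl5 rose by 1.77 in WT (edgeR adjusted p = 4.45e-05) and was at 0.27 in IL6KO (adjusted p = 0.427). The test of whether the genotypes differ in these time courses is the interaction itself, which passed adjustment for none of these genes with all 12 libraries.

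**Figure D3:**
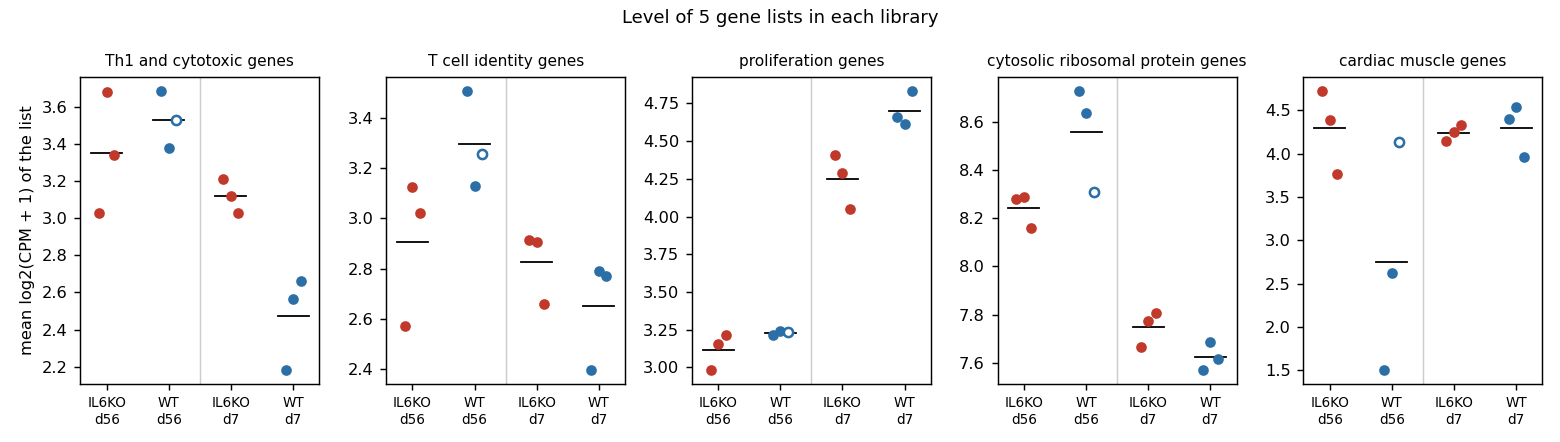
Mean log2(CPM + 1) of 5 gene lists in each library, IL6KO in red and WT in blue, with a bar at the group mean and an open circle for WT day 56 library 3. The cytotoxic list is lowest in the 3 WT day 7 libraries, at 2.18, 2.57 and 2.66. The cardiac list spreads from 1.51 to 4.13 among the WT day 56 libraries.

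Socs3, the feedback inhibitor of gp130 signaling, exchanged the order of the genotypes between the days. Its levels at day 56 were 27.2, 25.8 and 21.0 CPM in IL6KO and 19.9, 15.1 and 16.1 CPM in WT. At day 7 they were 13.1, 10.1 and 12.7 CPM in IL6KO and 18.9, 22.3 and 21.2 CPM in WT. On neither day did the genotypes overlap: IL6KO was the higher group at day 56 and the lower at day 7. The genotype effects were 0.53 at day 56 (edgeR adjusted p = 0.121) and -0.80 at day 7 (adjusted p = 0.0399). The interaction was 1.33 (SE 0.20, 1.96 SE interval 0.93 to 1.73, adjusted p = 0.122). It ranged from 1.21 to 1.46 over 21 alternatives and was called in 3 of them, including DESeq2 (adjusted p = 1.77e-05) and the fit without WT day 56 library 3 (adjusted p = 0.00868). Socs3 rose between the days in IL6KO, by 1.04 (edgeR adjusted p = 0.000592), and was at -0.29 in WT (adjusted p = 0.198).

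The rest of the IL-6 and STAT3 pathway did not move as a group. Of 29 tested genes 14 had a positive and 15 a negative interaction, with a median of -0.05, and 3 had an unadjusted p under 0.05. Of these, 1 was positive (3.45%) and 2 negative (6.9%), against 4.26% and 3.27% of all genes. The receptor genes Il6r (-0.24, SE 0.25) and Il6st (0.16, SE 0.24), the kinase Jak1 (0.13, SE 0.13) and Stat3 (0.09, SE 0.10) had interactions within 2 SE of 0. Cebpd encodes a transcription factor of the acute phase response. It had 36.3, 21.5 and 38.0 CPM in IL6KO and 108, 124 and 23.0 CPM in WT at day 56, and 22.0, 20.9 and 42.9 CPM in IL6KO and 22.1, 18.7 and 27.6 CPM in WT at day 7. WT day 56 library 3 lay at the low end of the IL6KO range. The interaction of Cebpd was -1.75 (SE 0.78) with that library and -2.20 without it (edgeR adjusted p = 0.0314). Leaving out 1 library at a time gave -2.20 to -1.33, so the size depended on other libraries too. Il21r, a receptor of a T cell cytokine that also signals through STAT3, was at -0.65 (SE 0.29). Acute phase genes had 2 of 14 (14.3%) positive at an unadjusted p under 0.05, against 4.26% of all genes, and 0 negative. Fgg, the gene of fibrinogen gamma chain, had 88.5, 121 and 138 CPM in IL6KO and 111, 99.7 and 110 CPM in WT at day 56, against 77.4, 65.3 and 67.7 CPM in IL6KO and 108, 126 and 128 CPM in WT at day 7. Fgg was lower in IL6KO at day 7 (-0.78, edgeR adjusted p = 0.0384) and overlapped between the genotypes at day 56, with an interaction of 0.89 (SE 0.20, adjusted p = 0.42; 0.0382 without that library). A2m, an acute phase protease inhibitor in the rat, crossed over at low levels, with an interaction of 2.26 (SE 0.60).

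Genes of dividing cells mostly had positive interactions. Of 36 tested, 31 were positive and 11 (30.6%) had an unadjusted p under 0.05, against 4.26% of all genes, with 0 negative at that threshold. The median effect was -0.08 at day 56 and -0.49 at day 7, and the median interaction was 0.38 (0.39, with 1 called, without WT day 56 library 3). That 1 call among 36 genes stands beside 3.15% called positive of all genes in that fit. Ccnb1, the cyclin that drives entry into mitosis, had 3.78, 3.50 and 3.93 CPM in IL6KO and 3.95, 3.37 and 4.496 CPM in WT at day 56. At day 7 Ccnb1 had 11.2, 10.7 and 9.54 CPM in IL6KO and 17.0, 17.6 and 18.8 CPM in WT. It was called lower in IL6KO at day 7 (-0.76, edgeR adjusted p = 0.0262), and its interaction was 0.70 (SE 0.19, adjusted p = 0.467; 0.0347 without that library). Mki67, a nuclear protein of cycling cells, was at 0.45 (SE 0.20), Prc1, which bundles the spindle midzone, at 0.55 (SE 0.15) and Foxm1, a transcription factor of the cell cycle, at 0.49 (SE 0.16). The list fell between the days in both genotypes, with 33 of 36 genes lower at day 56 in IL6KO and 34 of 36 in WT. Over all 13865 genes 682 fell in IL6KO and 1116 in WT.

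Matrix genes had a smaller median interaction. Of 31 extracellular matrix genes 5 (16.1%) were positive and 1 (3.23%) negative at an unadjusted p under 0.05, against 4.26% and 3.27% of all genes. The medians were 0.03 at day 56, -0.22 at day 7 and 0.14 for the interaction (0.12, with 2 called, without WT day 56 library 3). Those 2 calls among 31 genes stand beside 3.15% called positive of all genes in that fit. Col12a1, a collagen that coats collagen fibrils, had 284, 231 and 290 CPM in IL6KO and 155, 221 and 217 CPM in WT at day 56. Its day 7 levels were 359, 376 and 335 CPM in IL6KO and 500, 463 and 449 CPM in WT. Both days separated the genotypes, in opposite directions, and the interaction was 0.84 (SE 0.19, edgeR adjusted p = 0.42; 0.0231 without that library). Tnc, the gene of tenascin C, was at 0.83 (SE 0.25) and Loxl2, which crosslinks collagen, at 0.72 (SE 0.20). Ednrb, an endothelin receptor of endothelium and smooth muscle, had 150, 136 and 137 CPM in IL6KO and 94.8, 111 and 112 CPM in WT at day 56. At day 7 the order was reversed by a small margin, with 131, 138 and 120 CPM in IL6KO and 141, 139 and 142 CPM in WT. Its interaction was 0.52 (SE 0.12, adjusted p = 0.42; 0.0258 without that library).

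**Figure D4:**
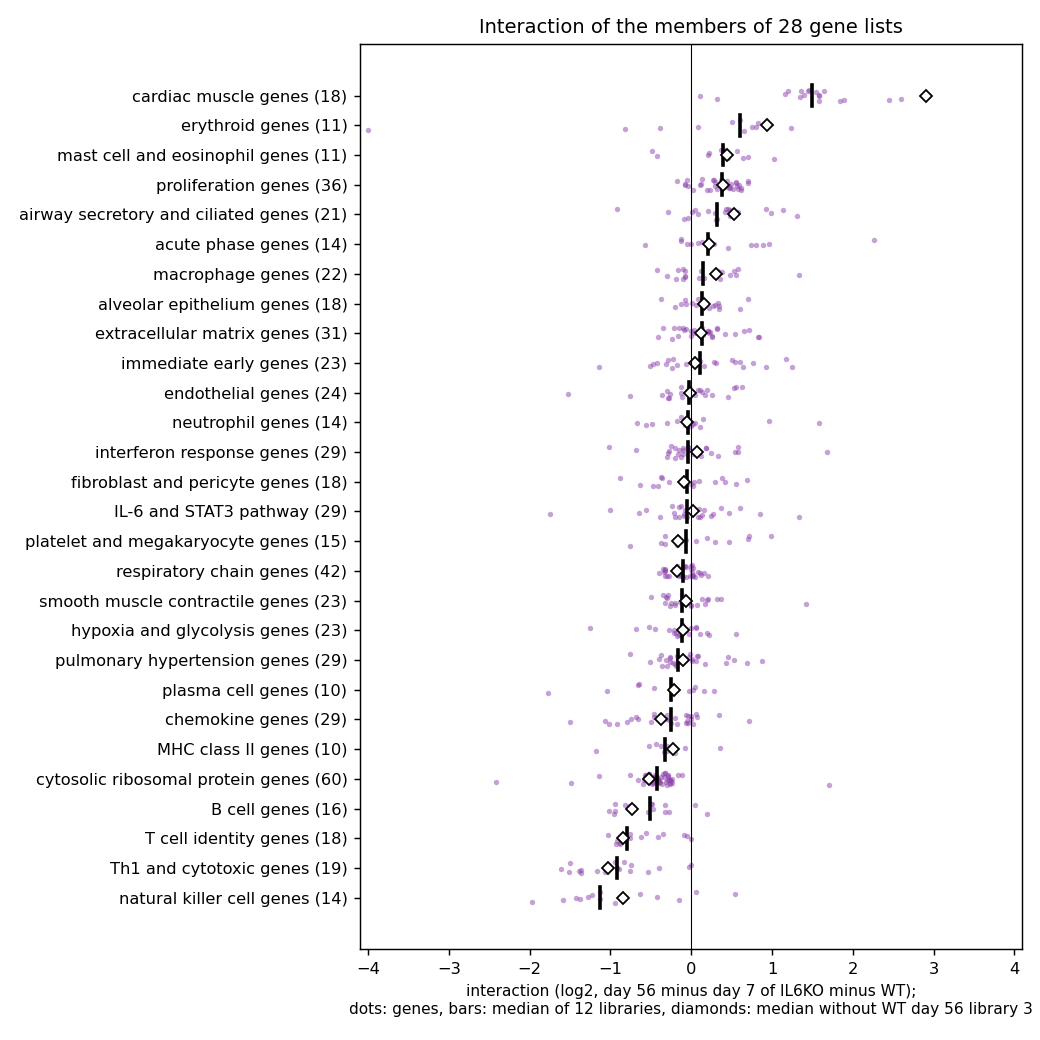
Interaction of the tested members of 28 gene lists on the log2 scale, 1 dot per gene, with bars at the median over 12 libraries and diamonds at the median without WT day 56 library 3. The number tested follows each name, and 1 gene beyond 4 is drawn at the axis end. Cytotoxic, NK, T and B cell lists lie left of 0 and the proliferation list right of it. The diamond of the cardiac list lies at 2.90, beyond its bar at 1.501.

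Some genes separated the genotypes on 1 day only. Elovl7, a fatty acid elongase, had the smallest interaction p. It had 26.4, 23.3 and 17.5 CPM in IL6KO and 20.2, 27.8 and 29.3 CPM in WT at day 56, against 14.7, 12.1 and 12.4 CPM in IL6KO and 49.3, 52.7 and 44.2 CPM in WT at day 7. Each WT day 7 library held at least 44.2 CPM and each IL6KO library of that day at most 14.7 CPM, and the day 56 groups overlapped. Its interaction was 1.70 (SE 0.24, edgeR adjusted p = 0.122; 0.00479 without WT day 56 library 3). Between the days Elovl7 rose by 0.78 in IL6KO (adjusted p = 0.0141) and fell by 0.92 in WT (adjusted p = 0.00267). Daam2, a formin of Wnt signaling, had 19.9, 22.4 and 27.99 CPM in IL6KO and 17.1, 20.1 and 25.3 CPM in WT at day 56, and 25.4, 23.4 and 26.4 CPM in IL6KO and 46.2, 45.1 and 42.5 CPM in WT at day 7, an interaction of 1.01 (SE 0.21). Drp2, a dystrophin-related protein, followed with 2.28 (SE 0.50).

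Pla2g2a and Piezo2 were late genes. Pla2g2a encodes a secreted phospholipase of inflammation. It had 8.59, 8.51 and 8.44 CPM in IL6KO and 23.4, 22.8 and 33.8 CPM in WT at day 56, and 15.2, 11.5 and 19.6 CPM in IL6KO and 13.4, 16.1 and 13.96 CPM in WT at day 7. The day 56 groups were far apart, with an effect of -1.64 (edgeR adjusted p = 0.00841), and the day 7 groups overlapped. Its interaction was -1.73 (SE 0.27, adjusted p = 0.122; 0.00658 without WT day 56 library 3). Piezo2 encodes a mechanically gated ion channel. It had 81.9, 79.3 and 110 CPM in IL6KO and 45.6, 50.4 and 51.1 CPM in WT at day 56, against 69.7, 71.9 and 75.0 CPM in IL6KO and 80.3, 73.9 and 70.3 CPM in WT at day 7. The late separation of Piezo2 included WT day 56 library 3. Its effect was 0.88 at day 56 (adjusted p = 0.0125) and -0.05 at day 7, and the interaction was 0.93 (SE 0.16, adjusted p = 0.177; 0.0113 without that library). Cyb561a3, a cytochrome b561 family gene, was likewise called at day 56 (-0.75, adjusted p = 0.0243) and stood at 0.05 at day 7.

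**Figure D5:**
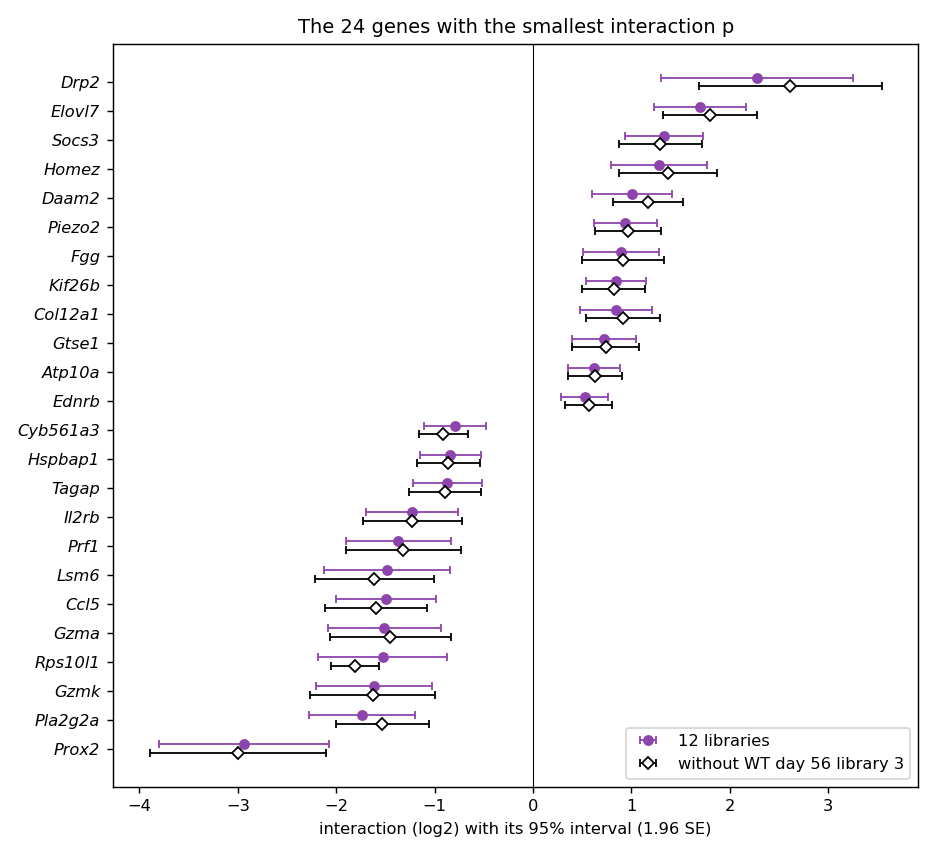
Interaction of the 24 genes with the smallest p, on the log2 scale, with lines of 1.96 SE to either side, labelled as 95% intervals. The multiplier is that of the normal distribution, and edgeR's test would give wider 95% intervals. Filled circles use 12 libraries and open diamonds leave out WT day 56 library 3. No interval of the 24 genes includes 0 in either fit, which choosing them by p fixes for the fit of 12 libraries and favours in the other, whose libraries are all among those 12. Adjustment over all genes left 0 called with 12 libraries.

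In every library, 79 genes (0.57% of those tested) separated the genotypes on both days in opposite directions. Of these, 35 (0.252%) were higher in IL6KO at day 56 and lower at day 7, and 44 (0.317%) were lower at day 56 and higher at day 7. By comparison, 483 genes (3.48%) separated them on both days in equal directions. With 3 libraries a group, complete separation can also arise by chance. How many genes crossed in that way was not tested. Leaving out 1 library at a time gave 101 to 306 crossing genes, with 306 without WT day 56 library 3 and at most 209 without any other. A rise is largely fixed in advance, since fewer libraries then have to lie apart. Homez, a homeobox gene, had 4.49, 3.98 and 4.77 CPM in IL6KO and 2.74, 2.17 and 2.97 CPM in WT at day 56, and 3.98, 3.57 and 3.99 CPM in IL6KO and 5.69, 6.17 and 4.68 CPM in WT at day 7. Its interaction was 1.28 (SE 0.25, edgeR adjusted p = 0.255; 0.0135 without WT day 56 library 3). Lsm6, an RNA-binding protein of the spliceosome, had 13.7, 13.7 and 14.7 CPM in IL6KO and 19.2, 22.8 and 15.3 CPM in WT at day 56, against 3.74, 3.63 and 4.49 CPM in IL6KO and 1.78, 2.68 and 1.15 CPM in WT at day 7. Both genotypes held several times more Lsm6 counts in the day 56 table. The interaction of Lsm6 was -1.49 (SE 0.33). Parp9, an interferon-induced gene, crossed with an interaction of -0.69 (SE 0.18), although 0 of 29 interferon response genes reached an unadjusted p under 0.05.

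Ribosomal protein genes had small negative interactions almost throughout. Of 60 tested, 59 were negative and 40 (66.7%) had an unadjusted p under 0.05, against 3.27% negative of all genes. The medians were -0.31 at day 56, 0.09 at day 7 and -0.42 for the interaction. Without WT day 56 library 3 the median was -0.52 and 27 were called, against 1.11% called negative of all genes. Crossing genes numbered 9 of the 60, against 0.57% of all genes. Rplp2, a protein of the ribosomal stalk, had 40.5, 44.9 and 36.3 CPM in IL6KO and 72.1, 75.0 and 49.2 CPM in WT at day 56, and 40.4, 41.2 and 41.2 CPM in IL6KO and 37.5, 39.5 and 40.2 CPM in WT at day 7. The late difference in Rplp2 was smallest against WT day 56 library 3. Its interaction was -0.76 (SE 0.19, edgeR adjusted p = 0.467), and -0.93 without that library (adjusted p = 0.00445). Between the days 4 of the 60 rose in IL6KO and 39 rose in WT, while over all 13865 genes 471 rose in IL6KO and 932 in WT. The list's mean log2(CPM + 1) at day 56 was 8.28, 8.29 and 8.16 in IL6KO and 8.73, 8.64 and 8.31 in WT. Library 3 was again the WT library nearest to IL6KO. Ribosomal protein genes have many near-identical copies in the genome, and symbols such as Rps10l1 (-1.53, SE 0.33) may take reads from the parent gene.

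Cardiac muscle genes spread widely among the WT day 56 libraries. All 18 tested had a positive interaction with a median of 1.501, and 4 (22.2%) had an unadjusted p under 0.05, against 4.26% positive of all genes. The summed level of the list ran from 458 to 908 CPM in IL6KO and from 95.5 to 585 CPM in WT at day 56, and from 653 to 721 CPM in IL6KO and from 566 to 870 CPM in WT at day 7. WT day 56 libraries 1, 2 and 3 had mean log2(CPM + 1) of 1.51, 2.62 and 4.13, so library 3 lay within the IL6KO range of 3.77 to 4.72. Without it the median interaction was 2.90 and 8 of the 18 were called, against 3.15% called positive of all genes. Ryr2, the calcium release channel of heart muscle, had 19.7, 13.7 and 12.004 CPM in IL6KO and 1.04, 2.63 and 13.3 CPM in WT at day 56. Sln, a regulator of the calcium pump in the atrium, had 0 CPM in WT day 56 library 1. The part of heart muscle RNA in the other day 56 differences was not tested.

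Airway, alveolar and macrophage genes had small positive median interactions, with more members positive at an unadjusted p under 0.05 than the 4.26% of all genes. Airway secretory and ciliated genes had 3 of 21 (14.3%) positive at that threshold and a median interaction of 0.32 (0.53, with 1 called, without WT day 56 library 3). Dnah5, a dynein motor of cilia, had 18.3, 17.9 and 19.5 CPM in IL6KO and 4.11, 4.39 and 14.3 CPM in WT at day 56, with WT library 3 between the others. Its interaction was 1.31 (SE 0.54, edgeR adjusted p = 0.649), and 2.11 without that library (adjusted p = 0.00343). Ptprb, a phosphatase of vascular endothelium, had the smallest edgeR adjusted p of the named positive genes without that library (0.00245). The interaction of Ptprb was 1.24 without that library and 0.77 with it. Macrophage genes had 4 of 22 (18.2%) and alveolar epithelium genes 3 of 18 (16.7%) positive at that threshold, both with a median interaction of 0.14. Without WT day 56 library 3 the medians were 0.31 for macrophage and 0.15 for alveolar genes, with 1 called in each list. These calls and that of the airway list, 1 each among 22, 18 and 21 genes, stand beside 3.15% called positive of all genes. Over the 21 alternatives the alveolar median ran from 0.09 to 0.26. Mast cell and eosinophil genes had a median of 0.39 with 0 of 11 at that threshold. Neutrophil and immediate early genes had 0 of 14 and 0 of 23. The smooth muscle contractile list had 1 of 23 in each direction, and Acta2, smooth muscle actin, was at -0.27 (SE 0.18).

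Genes called at day 7 mostly kept their direction with a smaller size at day 56. In the joint fit edgeR called 20 genes at day 56 (0.144%), 8 higher (0.0577%) and 12 lower (0.0865%) in IL6KO, and 59 at day 7 (0.426%), 20 higher (0.144%) and 39 lower (0.281%). Leaving out 1 library at a time gave 7 to 2277 day 56 calls, the highest without WT day 56 library 3 (16.3% of the genes tested without it), and 6 to 116 day 7 calls, again the highest without it (0.828%). At an unadjusted p under 0.05 there were 2529 genes (18.2%) at day 56 and 1291 (9.31%) at day 7. Of the 59 day 7 calls, 8 had the opposite sign at day 56, 47 the same sign and a smaller size, and 4 the same sign and at least the same size. The 20 genes higher in IL6KO had a median of 0.32 at day 56 and 1.39 at day 7, and the 39 lower genes had -0.33 at day 56 and -0.98 at day 7. Genes picked for a large effect on 1 day tend to show a smaller one on another, so the loss of size is a description. At day 56, 30 of the 59 still separated the genotypes in all libraries in the same direction, and 1, Socs3, in the opposite one. Over all genes 16.6% separated at day 56 and 18.7% at day 7. The 8 with the opposite sign were Gzmk, Ccl5, Il2rb, Fgg, Daam2, Socs3, Psca and Ppp1r1b. The 4 of at least the same size were Siglec5, Slc2a10, Retsat and Serpine2. Psca, Ppp1r1b and Serpine2 fell outside the rule for named genes and were named after their values were seen.

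Adamts13, Slpi, Siglec5, Slc2a10 and Retsat were called lower, and Gstt3 higher, on both days. Slc2a10, Retsat and Gstt3 were also named after their values were seen. Adamts13, the protease that cuts von Willebrand factor, had 2.37, 2.29 and 1.99 CPM in IL6KO and 25.8, 13.6 and 12.6 CPM in WT at day 56, against 1.13, 0.908 and 1.83 CPM in IL6KO and 16.1, 18.6 and 17.5 CPM in WT at day 7. Every IL6KO library lay far below every WT library on both days. Its effects were -2.97 at day 56 (edgeR adjusted p = 0.00347) and -3.73 at day 7 (adjusted p = 0.000289). The interaction of Adamts13 was 0.76 (SE 0.43, 1.96 SE interval -0.07 to 1.60). Slpi, an inhibitor of leukocyte proteases, had effects of -3.07 at day 56 and -3.37 at day 7. The interaction of Slpi was 0.30 (SE 0.69, 1.96 SE interval -1.06 to 1.66). It changed sign without IL6KO day 7 library 1 (-0.12) or WT day 7 library 3 (-0.32). These intervals leave room for a difference between the days. Siglec5, a sialic acid receptor of myeloid cells, had effects of -1.92 at day 56 and -1.44 at day 7. Of all 59 day 7 calls, WT day 56 library 3 was nearer to the IL6KO libraries than to the other WT libraries for 16 (27.1%), against 66.3% of all genes tested. The joint fit that called them includes this library, and a gene that it sets apart has a larger spread and is called less easily. Choosing the calls thus favours a low share, which is a description.

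Prox2, a homeobox gene, was higher in IL6KO on both days with a shrinking gap. It had 3.85, 5.31 and 4.04 CPM in IL6KO and 1.65, 2.26 and 1.67 CPM in WT at day 56, and 4.33, 3.63 and 3.83 CPM in IL6KO and 0.0711, 0.318 and 0.203 CPM in WT at day 7. The WT day 7 libraries were near the limit of detection. Its interaction was -2.94 (SE 0.44, edgeR adjusted p = 0.122; 0.00625 without WT day 56 library 3). C5, complement component 5, had 83.8, 94.6 and 57.4 CPM in IL6KO and 3.07, 36.7 and 38.1 CPM in WT at day 56, and 67.3, 57.5 and 57.5 CPM in IL6KO and 0.924, 1.498 and 3.52 CPM in WT at day 7. WT day 56 library 1 lay near the WT day 7 libraries and the other WT day 56 libraries did not, and the interaction was -3.36 (SE 1.08, adjusted p = 0.566). Ephx2, soluble epoxide hydrolase, had 2.50, 2.77 and 2.25 CPM in IL6KO and 20.4, 19.1 and 20.4 CPM in WT at day 56, and 1.19, 2.08 and 2.11 CPM in IL6KO and 12.4, 11.1 and 1.36 CPM in WT at day 7. WT day 7 library 3 lay within the IL6KO range for Ephx2, and the interaction was -0.77 (SE 0.81, adjusted p = 0.84).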

How the data were processed

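The authors deposited raw counts per gene, 1 column per library with replicates not pooled, in separate day 7 and day 56 tables of 22081 symbols each. Trizol lysis, a column kit with DNase and standard Illumina libraries were used, per the labels' protocols. Per the submitters' processing notes the build was GRCm38, a mouse build named for these rat samples too. Aligner and counter: not given in the sources used here. The tables were joined by symbol. 10 columns of other samples were not used.

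Counts were filtered with filterByExpr over the 4 groups, given TMM factors and tested in R 4.3.3 by edgeR 4.0.16 (robust glmQLFit, then glmQLFTest), adjusted by Benjamini-Hochberg over all 13865 genes. Calls are genes whose adjusted p was under 0.05. A count of 0 is bounded by 3 counts, at most 0.2193 CPM, which covers counting error only. Levels are compared between libraries, never between genes, since CPM are not per length. No 2 libraries of a group agreed within sampling noise (chi-square per gene 8.58 to 35.3).

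The genes examined, the 28 lists and the rules were chosen with earlier results of these data known, and no list was tested as a set. Named genes were fixed genes, the 12 per direction with the smallest interaction p, the 6 per direction without WT day 56 library 3, up to 3 per list, the 6 per direction that crossed most and 6 lasting day 7 calls, at 1 CPM or more on each day and without clone-based names, conditions that fixed genes and list members did not have to meet. Alternatives were DESeq2 1.42.0, limma-voom 3.58.1 with and without quality weights, RLE, other filters, a fit without robust dispersion, fits of 1 day's libraries, the replicate number as a block and each library left out. Promoter windows are RefSeq, GRCr8, matched by symbol and kept where the window ended at the gene's outer end. 1 list member is not reported here, and the counts include it.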

Additional observations from a re-analysis of the deposited data

Results flagged for a closer look

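In 23 of the genes named by the rule, all 3 IL6KO libraries lay on opposite sides of all 3 WT libraries on the days. The difference between the days was tested for each as the interaction, and none passed edgeR's adjustment with 12 libraries. Higher in IL6KO at day 56 and lower at day 7 were A2m (interaction 2.26), Socs3 (1.33), Clip4 (1.31), Homez (1.28), Zmynd12 (0.97), Kif26b (0.84), Col12a1 (0.84), Gtse1 (0.72), Atp10a (0.62), Ednrb (0.52) and Sdc1 (0.28). Lower in IL6KO at day 56 and higher at day 7 were Klrg1 (-1.97), Art2b (-1.82), Tnfrsf17 (-1.77), Lsm6 (-1.49), Cd247 (-1.03), Tagap (-0.87), Hspbap1 (-0.84), Cdkl3 (-0.84), Rplp2 (-0.76), Parp9 (-0.69), Rps3a (-0.51) and Rpl7 (-0.43). Of all genes tested, 0.57% crossed in this way. 12 of the 23 were named partly for their crossing, so their number says nothing beyond that share.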

How the results depend on the processing

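The count of interaction calls was 0 under RLE, limma-voom (1159 genes at an unadjusted p under 0.05), both other filters, the fit without robust dispersion and the replicate block across both days. It was 48 with DESeq2 (1075 unadjusted), 269 with quality weights and 1 (RGD1565355) with the replicate block within each day. Leaving out 1 library gave 0 to 597: 597 without WT day 56 library 3, 2 without WT day 7 library 1 (Ccdc77 and LOC100911585), 1 without IL6KO day 7 library 2 (LOC108348083), 1 without IL6KO day 56 library 3 (Elovl7) and 0 without any other. Day 56 calls (20) numbered 608 with DESeq2, 1907 with quality weights, 35 and 10 with the replicate block within and across days, 3 with the 6 day 56 libraries alone and 7 to 2277 with 1 library left out. They were 7 without WT day 56 library 2, 2277 without WT day 56 library 3, 8 without IL6KO day 56 library 3 and 13 without IL6KO day 7 library 3. Day 7 calls (59) numbered 280, 630, 19, 16 and, with the 6 day 7 libraries alone, 282 under the same alternatives, and 6 to 116 with 1 library left out. Without IL6KO day 7 libraries 1, 2 and 3 they were 6, 12 and 19, without WT day 7 libraries 1, 2 and 3 they were 32, 20 and 13, without IL6KO day 56 library 2 they were 33, and without WT day 56 library 3 they were 116. The 79 crossing genes became 101 to 306 with 1 library left out, at least 1.5 times as many (130 or more) in 9 of the 12 cases, which exclude library 1 of WT on either day and library 2 of IL6KO at day 7. Leaving out a library loosens the condition for crossing, so a rise follows largely from the definition. Day 7 calls with the same sign and at least the same size at day 56 (4) were 2 to 6, 2 without WT day 7 library 1. The interaction of Slpi ran from -0.32 to 0.80 with 1 library left out: it reversed to -0.12 without IL6KO day 7 library 1 and to -0.32 without WT day 7 library 3. Apart from the looser condition for crossing, the cause of these changes was not tested. Whether the replicate numbers pair the samples was not settled. In their deviations across genes, same-numbered IL6KO and WT libraries correlated at -0.16, -0.07 and -0.03 at day 56. Differently numbered ones ran from -0.06 to 0.14 on that day. At day 7 same-numbered libraries correlated at 0.06, 0.105 and 0.27, and differently numbered ones at -0.18 to 0.105. The median interaction kept its sign under all 21 alternatives for 20 of the 28 lists, among them the cytotoxic (-1.38 to -0.76), NK (-1.38 to -0.65), T cell (-0.92 to -0.54), ribosomal (-0.52 to -0.35), proliferation (0.26 to 0.47) and cardiac (1.01 to 3.00) lists, and changed it under 1 to 6 alternatives for the other 8. With 3 libraries a group, the median SE of the interaction was 0.20, so small differences were not detectable here.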
